A study of Mus musculus with 20 samples.

Results

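The steroid hormone receptors described here are 5 nuclear receptor genes: Esr1 and Esr2, which encode estrogen receptors alpha and beta, Pgr, which encodes the progesterone receptor, Nr3c1, which encodes the glucocorticoid receptor, and Nr3c2, which encodes the mineralocorticoid receptor. They were found by matching their symbols to the Ensembl gene identifiers of the expression table, and all 5 were among the 29049 genes with a value in at least 1 library. Their transcript levels were compared between sacral and lumbar dorsal root ganglia (DRG) of the same embryos. After a filter on low values (a mean of at least 1 CPM, reads scaled to library size, in at least 1 group), 4 of the 5 receptors were among the 16164 genes tested, and Esr2 was below the filter.

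The libraries were made from whole DRG of C57Bl6 mouse embryos at E18.5, late in gestation, with no treatment or genetic change. Lumbar ganglia came from L4-L5 and sacral ganglia from L6-S1, and each of 5 male embryos (M1, M3, M5, M7 and M8) and 5 female embryos (F3, F7, F8, F9 and F10) gave 1 library per level. Level and sex thus made 4 groups of 5 libraries, 20 libraries in all. The ganglia were homogenized whole, so each library held RNA from neurons, glia, vessels and any attached connective tissue, and fewer cells of a type could not be told apart from less RNA per cell.

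Steroid receptors are transcription factors that are held by chaperones until a steroid enters the cell and binds. The receptor then binds DNA as a dimer and recruits coactivators or corepressors. The estrogen receptors read a different response element from the one shared by the glucocorticoid, mineralocorticoid and progesterone receptors. Sensory neurons of the sacral ganglia supply the bladder, distal bowel and reproductive organs, and estrogen receptors are known from such neurons in adult rodents, whereas the glucocorticoid receptor is made by most cell types.

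The contact with DNA is made by the first zinc finger of each receptor, and its sequence is shown for 3 of the genes, to set the estrogen receptors beside a receptor of the other family. Each run holds 75 coding bases, starting at the first cysteine codon of that finger and read from the GENCODE M1 transcripts of mouse build mm9, with the 6 codons of the recognition region in capitals.
Esr1, chr10:5599750-5599824, minus strand, exon 4 of 10: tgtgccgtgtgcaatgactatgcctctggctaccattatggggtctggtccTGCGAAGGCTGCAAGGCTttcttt
Esr2, chr12:77266452-77266526, minus strand, exon 3 of 10: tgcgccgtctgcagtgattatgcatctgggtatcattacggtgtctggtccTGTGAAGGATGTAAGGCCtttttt
Pgr, chr9:8903657-8903731, plus strand, exon 2 of 8: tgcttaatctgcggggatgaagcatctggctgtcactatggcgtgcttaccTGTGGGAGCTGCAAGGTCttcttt
Esr1 and Esr2 shared 61 of the 75 bases, and Esr1 and Pgr shared 47. The 6 recognition codons encoded the same residues in Esr1 and Esr2 and agreed at 3 of 6 residues between Esr1 and Pgr.

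Total reads per library ran from 19606261 to 39678956, the highest in the lumbar library of F8. The share of reads from the 2 mitochondrial rRNA genes ran from 17.83% to 61.05%. It was above 40% in both libraries of M5 and F7 and in the lumbar library of F8, at 43.25%. In limma, 1035 genes differed between levels at an adjusted p of at most 0.05, which was 6.4% of the genes tested. Sacral DRG had the higher level for 434 of these, or 2.68% of the genes tested, and lumbar DRG for 601. This count moved with the embryos included. It was 453 without F10, 561 without F7, 570 without M5, 631 without F3 and 652 without M1. It was 751 without M3, 754 without M8, 779 without F9 and 824 without M7. Only without F8 did it rise, to 1667. Neuronal markers were abundant in every library, with beta-III tubulin (Tubb3) at 43.0 to 238.6 RPKM, which is reads scaled to gene length and library size. Connective tissue was present too, with Col1a1 at 47.1 to 287.1 RPKM.

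Levels are given as log2 RPKM, a length-scaled unit that allows genes to be set side by side. The length used for each gene was the union of its annotated exons, which for Esr1 was 13678 bases over 11 transcripts, so a transcript shorter than that union is understated. On this scale Nr3c1 was the most abundant receptor, at a mean level of 1.98 ± 0.36 log2 RPKM (SD, n = 20), and it was the highest of the 5 in 20 of 20 libraries. Nr3c2 followed at -0.11 ± 0.95, Pgr at -0.96 ± 0.54 and Esr1 at -1.19 ± 0.78 log2 RPKM. The ranges of these last receptors overlapped, and Nr3c2 was above Pgr in 14 of 20 libraries. The order of Pgr and Esr1 depended on the level. Esr1 was below Pgr in 10 of 10 lumbar libraries. It was above Pgr in 5 of 5 sacral male libraries and in 1 of 5 sacral female libraries. This order rested on the lengths used, 13678 bases for Esr1 and 4776 for Pgr. Before scaling to length, the lumbar libraries together held 1253 reads of Esr1 and 724 of Pgr. Esr2 was last in every library, with 0 to 13 reads.

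**Figure D1:**
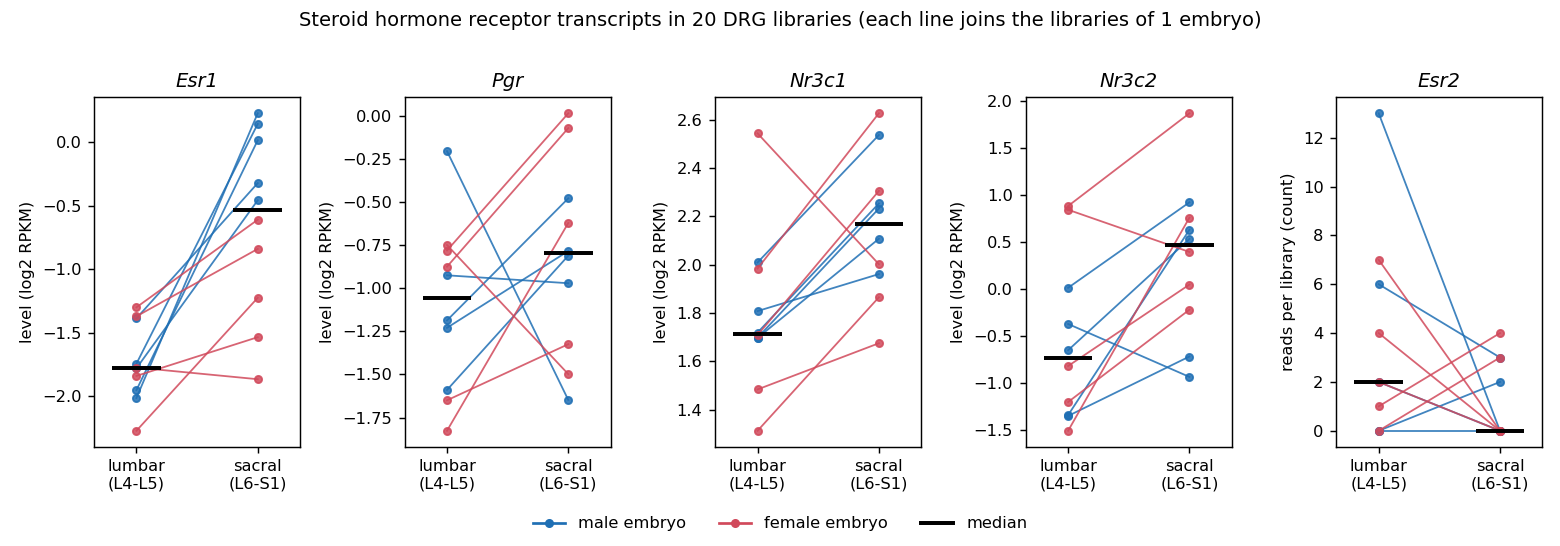
Level of each receptor in every library (log2 RPKM on the vertical axis, reads per library for Esr2), with lumbar and sacral libraries of 1 embryo joined by a line, males in blue, females in red and the median of each level as a black bar. The 5 sacral male values of Esr1 (-0.46 to 0.23) lie above all 5 lumbar male values (-2.01 to -1.39), while the lines of Pgr cross in both directions and Esr2 never exceeds 13 reads.

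Estrogen receptor alpha was upregulated in sacral DRG. Esr1 encodes the ligand-activated factor through which estradiol acts in most tissues, and its gene spans chr10:5340927-5734948 on the minus strand of mm9. In lumbar DRG of males its level was -1.78 in M1, -1.95 in M3, -1.74 in M5, -2.01 in M7 and -1.39 log2 RPKM in M8. In sacral DRG of the same embryos it was -0.46 in M1, 0.02 in M3, 0.15 in M5, 0.23 in M7 and -0.32 log2 RPKM in M8. Every sacral male library was above every lumbar male library, a separation found in that direction in 1.06% of the genes tested.

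In lumbar DRG of females the Esr1 level was -1.30 in F3, -1.84 in F7, -1.77 in F8, -2.27 in F9 and -1.37 log2 RPKM in F10. In sacral DRG it was -0.61 in F3, -1.53 in F7, -1.86 in F8, -1.22 in F9 and -0.84 log2 RPKM in F10. Sacral values were higher in F3, F7, F9 and F10, slightly lower in F8, and the ranges of the female groups overlapped. These levels rested on 67 to 184 reads per lumbar library and 99 to 454 reads per sacral library.

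Over both sexes the sacral minus lumbar difference of Esr1 was 1.10 ± 0.18 on the log2 scale (SE, 95% interval 0.73 to 1.46), a 2.14-fold higher level, with a limma adjusted p of 0.000942. The difference was above 0 in 9 of 10 embryos, and the exact two-sided sign-flip test over the 10 within-embryo differences gave p = 0.00391, where the smallest p possible is 0.00195. A difference above 0 in at least 9 of 10 embryos was found in 4.73% of the genes tested. Among the 434 genes called higher in sacral DRG, 63 had a larger difference than Esr1. Its difference was as large without M5 and F7, at 1.10 ± 0.24 (adjusted p = 0.0238 in limma). These were the embryos with a mitochondrial rRNA share above 40% in both libraries. F8, above 40% in its lumbar library only, stayed in that fit.

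Of the 4 receptors tested, Esr1 was the only one called, beside 6.4% of all genes tested. The fitted differences of all 4 were above 0, while the median over all genes tested was -0.04.

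**Figure D2:**
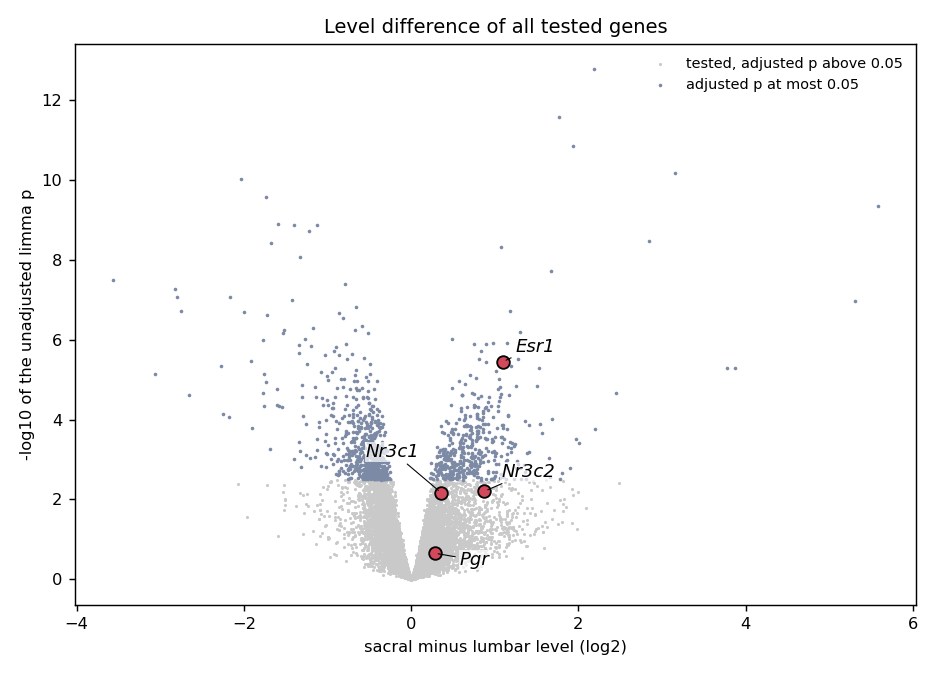
Sacral minus lumbar difference (log2, horizontal axis) against -log10 of the unadjusted limma p (vertical axis) for the 16164 genes tested, with called genes in blue-grey and the 4 tested receptors in red. Esr1 lies among the called genes at 1.10, Nr3c2 at 0.88 and Nr3c1 at 0.36 lie just below the called region, and Pgr at 0.28 lies near the base.

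The mineralocorticoid receptor was higher on average in sacral DRG but did not pass the test across all genes. Nr3c2 encodes a receptor that binds both aldosterone and corticosterone. Its level ran from -1.51 to 0.88 log2 RPKM in lumbar libraries, with a median of -0.74, and from -0.94 to 1.87 in sacral libraries, with a median of 0.46. The groups overlapped widely, and the lumbar libraries of F7 and F8, at 0.88 and 0.84, were above most sacral libraries. Within embryos the difference ran from -0.56 in M7 and -0.45 in F8 to 1.97 in M1 and 2.27 in F10, and 8 of 10 embryos were higher in sacral DRG.

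The fitted difference of Nr3c2 was 0.88 ± 0.29 (SE, 95% interval 0.28 to 1.48), with an unadjusted p of 0.00622 and an adjusted p of 0.0711 in limma. The exact sign-flip test gave p = 0.0176. Nr3c2 was called in 4 of 23 alternative limma fits. The adjusted p was 0.0397 without M7, at a difference of 1.05, and 0.0233 without F8, also at 1.05. With all embryos it was 0.0435 with the mitochondrial rRNA share as a covariate and 0.00525 with sample weights. Over all genes, 1035 were called in the fit reported. The count was 824 without M7, 1667 without F8, 1397 with the mitochondrial rRNA covariate and 2900 with sample weights. Exons at the 5′ end of the gene overlap those of a noncoding gene on the opposite strand, Gm10649, whose mean level was 0.0251 RPKM, and whether the counting used strand is not given in the sources used here.

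The glucocorticoid receptor showed a smaller difference of the same direction, also above the threshold. Nr3c1 encodes the main receptor for corticosterone. In lumbar libraries its level ran from 1.31 to 2.54 log2 RPKM with a median of 1.71, and in sacral libraries from 1.68 to 2.63 with a median of 2.17. The groups overlapped, and the highest lumbar value was the library of F8. Sacral values were higher in all embryos except F8, by 0.15 in M5 to 0.64 in F7, while F8 stood at -0.54.

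For Nr3c1 the fitted difference was 0.36 ± 0.12 (SE, 95% interval 0.11 to 0.61), a 1.28-fold higher level, with an adjusted p of 0.0746 in limma. The exact sign-flip test gave p = 0.0176, with 9 of 10 embryos higher in sacral DRG. Nr3c1 was called in 2 of 23 alternative limma fits. Without F8 the difference was 0.46 with an adjusted p of 0.00721. With sample weights, F8 included, it was 0.43 with an adjusted p of 0.00569. Over all genes, these fits called 1667 and 2900, beside 1035 in the fit reported. The counting error was small for this receptor, at 426 to 1793 reads per library.

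The progesterone receptor was not separated by level. Pgr, a gene that estrogen receptor alpha induces in reproductive tissues, lies at chr9:8900419-8965425 on the plus strand. Its level ran from -1.83 to -0.20 log2 RPKM in lumbar libraries with a median of -1.06, and from -1.65 to 0.02 in sacral libraries with a median of -0.80. The embryos moved both ways, from -1.44 in M8 and -0.75 in F10 to 1.21 in F9, and 7 of 10 were higher in sacral DRG. The fitted difference was 0.28 ± 0.22, with a 95% interval of -0.18 to 0.75 and a limma adjusted p of 0.464, so a rise of up to that bound was not distinguished from none. The exact sign-flip p was 0.273, and it fell to 0.0469 when M8 was left out, at a mean difference of 0.47.

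Estrogen receptor beta was near the limit of detection. Esr2 (chr12:77221406-77278246, minus strand) had 35 reads summed over the 10 lumbar libraries and 12 over the 10 sacral libraries. No read was counted in 3 lumbar and 6 sacral libraries, where a count of 0 allows up to 3 reads, or 0.0229 to 0.0543 RPKM in those libraries. The highest value was 13 reads, or 0.114 RPKM, in the lumbar library of M8, and 5 of 20 libraries held more than 3 reads. No fold is given for Esr2, and the exact sign-flip test, with blanks set at 0.5 reads, gave p = 0.305. Intervals and limits of this kind cover counting error only.

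**Figure D3:**
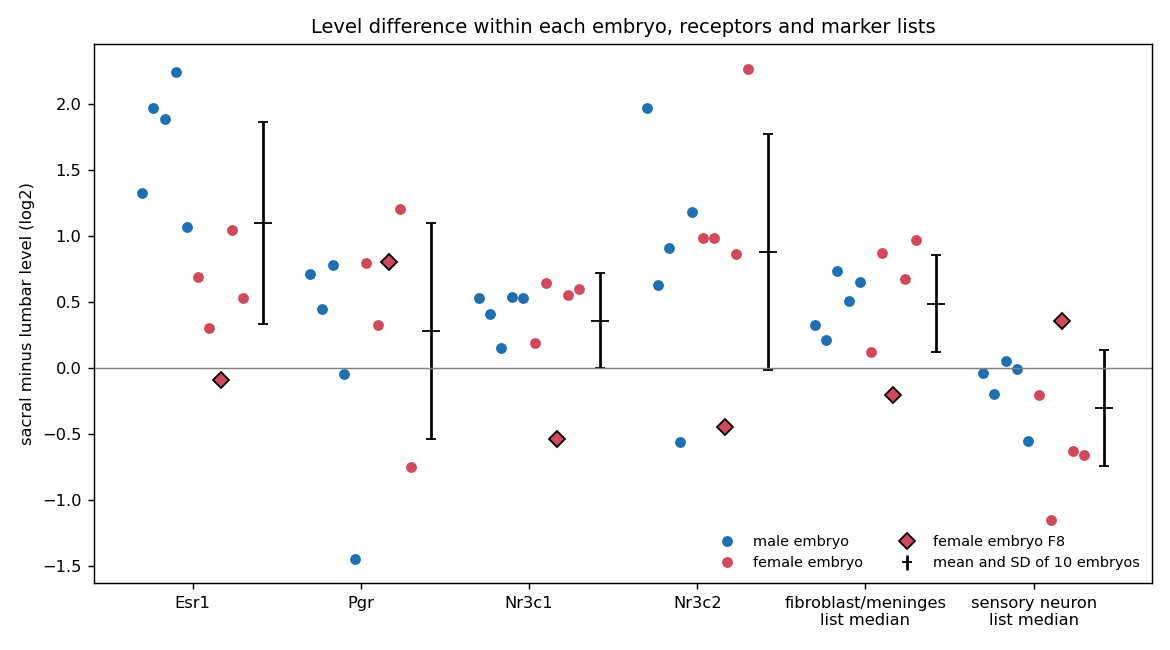
Sacral minus lumbar difference (log2) of each embryo for the 4 tested receptors and for the median of the fibroblast and meninges markers and of the sensory neuron markers, with males in blue, females in red, F8 as an outlined diamond and bars for the mean and SD of 10 embryos. F8 lies at -0.09 for Esr1, -0.54 for Nr3c1, -0.45 for Nr3c2 and -0.21 for the fibroblast and meninges list, and at 0.36 for the sensory neuron list.

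The difference between levels was also compared between the sexes, since the design asks for an interaction of level and sex. Male and female libraries carry separate runs of numbers at the end of their sample titles. What these numbers stand for is not given, and sex could not be told apart from any difference between the runs. For Esr1 the sacral minus lumbar difference was 1.70 ± 0.49 in males (SD, n = 5) and 0.50 ± 0.43 in females (SD, n = 5), a female minus male value of -1.20. Males ranged from 1.07 in M8 to 2.24 in M7 and females from -0.09 in F8 to 1.05 in F9. The lowest male thus lay only just above the highest female. The share of all genes tested with such a separation of the sexes was not counted. The exact permutation of the sex labels gave p = 0.00794, the smallest p this design allows, for 1 of 5 receptors examined. In the limma fit the unadjusted p of the interaction was 0.00266 and the adjusted p was 0.996.

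No gene passed the interaction test in limma, so 0% of the genes tested were called. Of the 16164 genes, 568 had an unadjusted p under 0.05, and 20 genes had a smaller p than Esr1. The interaction of Esr1 therefore did not pass the test across all genes. For the other receptors the female minus male value was 0.39 ± 0.45 for Pgr, 0.10 ± 0.58 for Nr3c2 and -0.14 ± 0.24 for Nr3c1 (SE), each with a limma adjusted p of 0.996 and with exact p-values of 0.484, 0.770 and 0.722. In sacral libraries the mean level of Esr1 was -0.08 ± 0.30 in males and -1.21 ± 0.51 log2 RPKM in females (SD, n = 5 each). In lumbar libraries it was -1.77 ± 0.25 and -1.71 ± 0.39. A difference between the sexes within a level was not tested.

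Markers of other cells differed by level as well, beside 2.68% of all genes tested called higher in sacral DRG and 6.4% called in either direction. Of 8 tested markers of fibroblasts and meninges, 5 were upregulated in sacral DRG, none in lumbar DRG, and their median difference was 0.56. The summed level of this list was 195.0 to 444.5 RPKM in lumbar libraries and 270.3 to 601.1 RPKM in sacral libraries, and no marker of it was at 0 in any library. Of the other lists, 2 of 4 tested cartilage markers, 2 of 6 endothelial markers and 1 of 3 macrophage markers were upregulated in sacral DRG. The median differences of these 3 lists were 0.74, 0.001 and -0.02, in that order. A difference above 0 was found in 4 of 4 cartilage, 3 of 6 endothelial and 1 of 3 macrophage markers. Among 8 nociceptor markers Trpv1 was called higher in sacral DRG, by 0.70, and Tac1 lower, at -0.81. The median difference of the nociceptor list was -0.31, and 1 of its 8 markers had a difference above 0. In the other direction, 4 of 8 Schwann cell and satellite glia markers, 3 of 5 markers of large myelinated neurons and 1 of 8 pan-neuronal markers were upregulated in lumbar DRG. The median differences of these lists were -0.37, -0.86 and -0.36, in that order. No marker of these lists had a fitted difference above 0.

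The median of the fibroblast and meninges list was higher in sacral DRG in 9 of 10 embryos, and the exception was F8, as for Esr1 and Nr3c1. With the mean level of these 8 markers added to the fit, a covariate chosen after the data had been seen and itself higher in sacral DRG, the difference of Nr3c1 was -0.05 ± 0.13 and that of Nr3c2 was -0.02 ± 0.34 (adjusted p = 0.911 and 0.985 in limma). The difference of Esr1 in that fit was 1.18 ± 0.27 (adjusted p = 0.0472), and 83 genes in all were called. The part of connective tissue content in the receptor differences was not tested otherwise, nor was that of the glial and neuronal markers.

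The genes whose levels ran most like each receptor across the 20 libraries were taken from 13847 protein-coding genes without blanks, as a description only, since the libraries share embryos and levels. For Esr1 they were Thsd7a (Pearson r = 0.817), Dbpht2 (r = 0.798) and Cacna1e (r = 0.794), and each was itself upregulated in sacral DRG, by 1.01, 0.90 and 1.19 on the log2 scale. Cacna1e encodes the pore of the R-type calcium channel, and Thsd7a a membrane protein with thrombospondin repeats. For Nr3c2 the likeness was closer, with Dab2 (r = 0.951), an endocytic adaptor, Tmem39a (r = 0.947) and Adamts16 (r = 0.943), a secreted metalloprotease, of which Adamts16 was called higher in sacral DRG, by 1.01. For Nr3c1 the genes were Agtr2 (r = 0.916), an angiotensin receptor, Smoc2 (r = 0.915), a matrix protein, and Fndc3a (r = 0.899), and all 3 were upregulated in sacral DRG, by 0.61, 0.71 and 0.38. For Pgr they were Ddx21 (r = 0.787), Sh2b2 (r = 0.714) and Ttll11 (r = 0.676), none of which was called for level.

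The genes that act with these receptors were read from 7 lists of related receptors, chaperones, cofactors, enzymes and induced genes. Of 75 such genes, 64 were tested and 5 were called, or 7.81%, beside 6.4% of all genes tested. Their median difference was -0.01, and the level was higher in sacral DRG for 3 of the called genes and higher in lumbar DRG for 2. The lists thus showed about the share of calls found in all genes.

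Among other receptors, none of the 3 tested nuclear receptors and none of the 8 membrane steroid receptors was called. Esrra, an estrogen-related receptor with no known steroid ligand, had a difference of 0.22 ± 0.27 (adjusted p = 0.650 in limma). Gper1, the membrane estrogen receptor, had a difference of 0.21 ± 0.22 (adjusted p = 0.582). None of the 9 tested chaperones and immunophilins that hold the unbound receptors and none of the 12 coactivators and corepressors was called, with median differences of -0.17 and 0.11.

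Of the steroid synthesis and conversion enzymes, 11 of 20 were tested and 1 was called, beside 6.4% of all genes tested. Srd5a2, which converts testosterone to dihydrotestosterone, was upregulated in sacral DRG by 1.38 ± 0.35 on the log2 scale (adjusted p = 0.0218 in limma), with 2 to 191 reads per library and higher values in 8 of 10 embryos. Enzymes below the filter, named after their values had been seen, included Cyp19a1, the aromatase that makes estradiol, at 0 to 9 reads, and Hsd11b2, which inactivates corticosterone in mineralocorticoid target tissues, at 0 to 38 reads per library.

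Of 14 glucocorticoid-induced genes, 2 were upregulated in sacral DRG and none in lumbar DRG, with a median difference of 0.12. Of all genes tested, 2.68% were called higher in sacral DRG and 6.4% in either direction. Zbtb16, a zinc finger repressor, was higher in 10 of 10 embryos by 0.84 ± 0.13 (adjusted p = 0.000623 in limma). Per1, a circadian clock repressor, was higher in 9 of 10 embryos by 0.38 ± 0.10 (adjusted p = 0.0319 in limma). The others did not pass the test, and those nearest the threshold, named after their values had been seen, lay on both sides. Tsc22d3 had a difference of -0.30 ± 0.10 (adjusted p = 0.0631 in limma), Cdkn1a one of -0.43 ± 0.14 (adjusted p = 0.0717) and Fkbp5 one of 0.35 ± 0.12 (adjusted p = 0.0803).

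Of 9 tested estrogen-induced genes other than Pgr, none was upregulated in sacral DRG and 2 were upregulated in lumbar DRG, with a median difference of -0.07. In either direction, 6.4% of all genes tested were called. Ccnd1, which encodes cyclin D1, was lower in sacral DRG in 10 of 10 embryos, with a difference of -0.67 ± 0.10 (adjusted p = 0.000278 in limma). Areg, which encodes the growth factor amphiregulin, was also lower in 10 of 10, with a difference of -1.69 ± 0.42 (adjusted p = 0.0201 in limma) on 1 to 93 reads per library. Both are induced by other signals as well, and whether either gene responds to Esr1 in these ganglia was not tested.

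**Figure D4:**
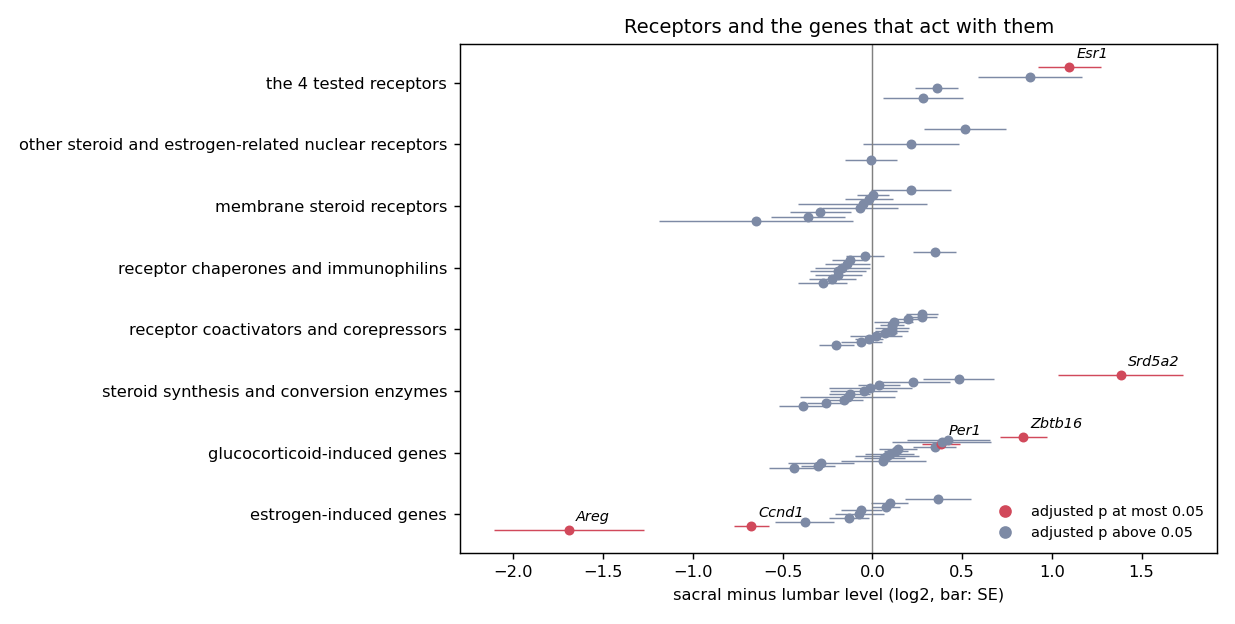
Sacral minus lumbar difference (log2, with the SE as a bar) of the 4 tested receptors and of the tested genes of 7 lists of genes that act with them, with called genes in red and the others in blue-grey. Called genes are Esr1 (1.10), Srd5a2 (1.38), Zbtb16 (0.84) and Per1 (0.38) on the sacral side and Ccnd1 (-0.67) and Areg (-1.69) on the lumbar side.

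Esr1 kept its call in each setting that tested it, though a filter on RPKM left it untested. It was called in 22 of 22 alternative fits that included it, with differences from 0.37 to 1.18 and adjusted p-values from 0.000116 to 0.0472 in limma. The lowest difference came from adding 1 to the RPKM value before taking logs, which compresses genes near this level. The fit without the embryo block gave an adjusted p of 0.00970 for Esr1, of 0.245 for Nr3c1 and Nr3c2 alike, and of 0.629 for Pgr. A filter of at least 1 RPKM in place of 1 CPM left Esr1 and Pgr untested, because RPKM divides by their long annotated exons.

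**Figure D5:**
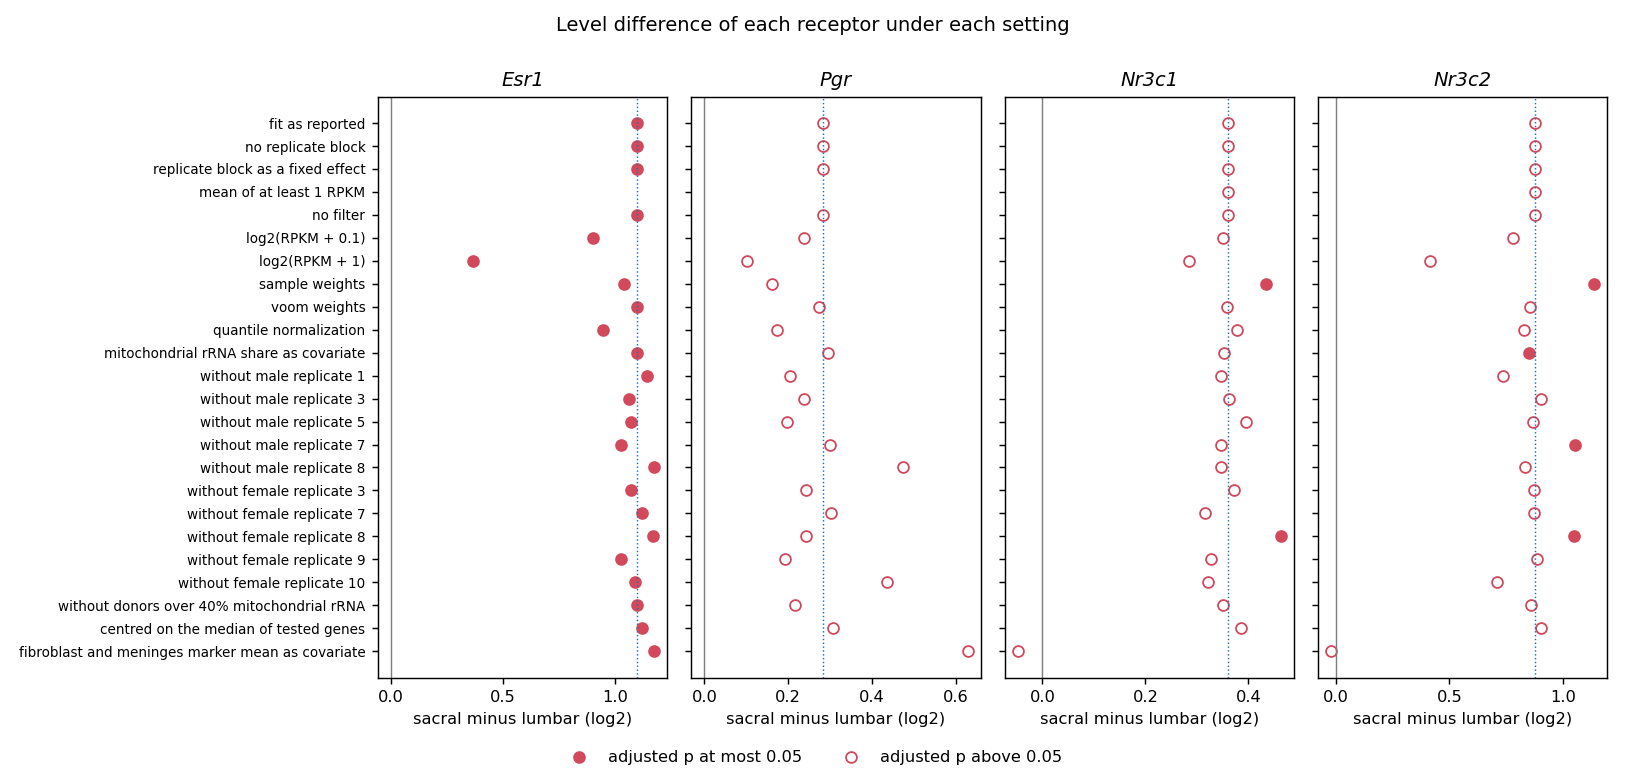
Sacral minus lumbar difference (log2, horizontal axis) of each tested receptor under the fit reported and each alternative (vertical axis), filled where the limma adjusted p was at most 0.05 and open where it was above, with the reported value as a dotted line. Esr1 is filled in every fit that tested it, Pgr in none, Nr3c1 in 2 and Nr3c2 in 4 alternatives.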

How the data were processed

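Total RNA of 20 DRG samples from 10 embryos was amplified before library preparation and sequenced. Per the study's methods, the authors aligned reads to mm9 (Ensembl 67) by Subread, dropped reads that did not map uniquely and ran featureCounts on the gene models, and the labels list limma 3.26.9 and edgeR 3.12.1 among the tools. The authors deposited log2 RPKM values with TMM library scaling and blanks where a gene had no reads. The deposited log2 values had the same median, 0.93, in all 20 libraries, so a difference is relative to the median listed gene. Strand use in counting is not given in the sources used here.

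Exon lengths were taken from GENCODE M1. Multiplying the deposited values back by length gave whole reads, within 0.05 of a read, for 98.18 to 98.36% of values per library, and these reads are the counts quoted. Blanks were set to 0.5 reads. Genes with a mean of at least 1 CPM in 1 group were tested (16164 of 37620 rows).

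The 4 group means were fitted with limma 3.58.1 in R 4.3.3, with the embryo as a block (duplicateCorrelation, consensus correlation 0.327), a trended eBayes prior and Benjamini-Hochberg adjustment over all genes tested, and the threshold was an adjusted p of 0.05. Pairing comes from the embryo code in the sample titles. The deviations of an embryo's libraries from their group means correlated between -0.09 and 0.62. Single receptors were also tested by exact two-sided permutation over embryos. The litters of the embryos are not given in the labels. The fit was checked on simulated data.

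The receptors, gene lists, marker lists and tests were chosen with earlier results of these data known. Named were the 5 receptors, each called gene of the pathway lists, Gper1 and Esrra whatever their result, and for each tested receptor the 3 genes most like it by Pearson r. Some items the rule names are not reported here. Gper1 was matched through an older symbol. Alternatives covered the block, filter, pseudocount, weights, scaling, a mitochondrial rRNA covariate and leaving out embryos. A fit without M5 and F7, a connective tissue covariate and a centring on the tested genes were chosen after seeing the data.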

Additional observations from a re-analysis of the deposited data

Results flagged for a closer look

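The sacral minus lumbar difference of Esr1 differed between the sexes by a permutation of the sex labels. The female minus male value was -1.20 on the log2 scale, from a mean of 0.50 in females and 1.70 in males (n = 5 each). The exact permutation p of 0.00794 is the smallest this design allows. Esr1 was 1 of 5 receptors examined, and the share of all genes tested that reach this p was not counted. All 5 males and 4 of 5 females were higher in sacral DRG. The limma interaction across all genes had an adjusted p of 0.996, and 20 genes had a smaller p than Esr1. The female minus male value ran from -1.36 to -1.05 when any 1 embryo was left out. No library stood far from the others of its group in the 20 sets of 5 libraries examined for the 5 receptors, by Dixon's criterion.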

How the results depend on the processing

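Esr1 kept its direction and its call in the alternatives that tested it, and Pgr was called in none of its limma fits. Leaving out 1 embryo at a time gave 1.03 to 1.18 for Esr1, 0.19 to 0.47 for Pgr, 0.32 to 0.46 for Nr3c1 and 0.71 to 1.05 for Nr3c2. By the exact test these ranges were 0.97 to 1.23 for Esr1, 0.18 to 0.47 for Pgr, 0.33 to 0.46 for Nr3c1 and 0.72 to 1.04 for Nr3c2. With sample weights Nr3c1 (0.43) and Nr3c2 (1.14) were called, and with the mitochondrial rRNA covariate Nr3c2 was called (0.85). With the connective tissue covariate Nr3c1 was -0.048 ± 0.13 and Nr3c2 -0.022 ± 0.34 (SE), so the sign of neither was resolved. The female minus male value of Nr3c2 was -0.021 with the mitochondrial rRNA covariate and ran from -0.24 to 0.45 over the embryos left out, and that of Nr3c1 from -0.23 to 0.063. For Esr2 it ran from -0.35 to 1.42 by the exact test. The number of genes called was 1035 in the fit reported. It was 203 with no replicate block, 507 with no filter, 1397 with the mitochondrial rRNA covariate and 2900 with sample weights. It was 341 without M5 and F7, 83 with the connective tissue covariate and 453 to 1667 with 1 embryo left out. The paired fit is the one reported, and without the block no receptor's call changed. The cause of these moves was not tested. Esr2 had at most 13 reads in any library, and the interaction rested on 5 embryos per sex.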
